A study of Mus musculus with 10 samples.

Results

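The 8 genes described here encode 4 cation-chloride cotransporters (*Slc12a2*, *Slc12a5*, *Slc12a4* and *Slc12a7*) and 4 kinases that regulate them (*Wnk1*, *Wnk2*, *Stk39* and *Oxsr1*). They were taken by symbol from the 15900 genes listed in a gene-level table of cap analysis of gene expression (CAGE) in the mouse hippocampus, and all 8 were among the 15851 genes tested. CAGE sequences the capped 5′ ends of transcripts, so that 1 tag stands for 1 transcript start and a level in CPM, the tags of a gene scaled to a fixed library total, does not depend on transcript length. The study asked how gene expression changes after pilocarpine (PILO)-induced status epilepticus (SE), a prolonged seizure state, and after treatment with the antiepileptic drug levetiracetam (LEV).

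The samples were whole hippocampi of male ICR (CD-1) mice, 9 to 10 weeks old at injection, with 2 mice in each of 5 groups. The SE 6 h and SE 2 days groups received methyl scopolamine, then PILO, and then diazepam to end the seizures. The SE + LEV 6 h and SE + LEV 2 days groups were treated in the same way and in addition received oral LEV after diazepam, 1 time in the former and 5 times in the latter. The pre-SE group is called untreated in the sample labels, while the methods of the study describe controls given saline instead of PILO. Mice with the same replicate number in different groups are different animals, and no group received LEV without SE.

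Cation-chloride cotransporters carry chloride across the membrane together with sodium or potassium. Nkcc1, the product of *Slc12a2*, loads cells with chloride, and the potassium-chloride cotransporters remove it. Kcc2, the product of *Slc12a5*, is the neuron-specific member of the latter kind and keeps neuronal chloride low, which is what makes GABA inhibitory in mature neurons. The WNK kinases activate Spak (*Stk39*) and Osr1 (*Oxsr1*), which phosphorylate the transporters, stimulating Nkcc1 and inhibiting the potassium-chloride cotransporters. This control acts on protein, which CAGE does not measure.

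In RefSeq, 2 promoter entries were found for *Slc12a5*, both on the plus strand, and their starts lie 7142 bases apart. They are shown because the table used here gives 1 value for the gene and does not separate its starts. The first covers chr2:164786096-164786395 and the second chr2:164793238-164793537 in mm9, the build to which the authors mapped the tags. *Slc12a7* is shown beside them as the member with the largest ratio between its highest and lowest library, with its first RefSeq promoter at chr13:73900858-73901157 on the plus strand. This entry is the first in RefSeq only, since the gene as annotated in GENCODE M1 begins upstream of it, at 73870542. Each of the promoters shown runs 5′ to 3′ from 250 bases before to 50 after the start, was taken from RefSeq on GRCm38.p6 and was found exactly once in mm9. Capitals mark an AP-1 match (TGANTCA) in the first and an E-box match (CACGTG) in the others.
Slc12a5 first start: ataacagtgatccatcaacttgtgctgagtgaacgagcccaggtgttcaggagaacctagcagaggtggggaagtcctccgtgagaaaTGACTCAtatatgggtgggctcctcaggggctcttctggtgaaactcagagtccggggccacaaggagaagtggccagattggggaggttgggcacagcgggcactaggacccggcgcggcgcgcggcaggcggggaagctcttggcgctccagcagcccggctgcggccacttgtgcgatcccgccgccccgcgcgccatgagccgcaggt
Slc12a5 second start: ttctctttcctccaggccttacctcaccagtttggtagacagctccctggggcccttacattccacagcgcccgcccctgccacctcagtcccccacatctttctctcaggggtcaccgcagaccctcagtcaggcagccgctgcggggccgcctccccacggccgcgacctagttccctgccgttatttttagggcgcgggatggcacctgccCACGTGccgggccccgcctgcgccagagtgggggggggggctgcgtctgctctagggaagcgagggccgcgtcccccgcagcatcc
Slc12a7 first start: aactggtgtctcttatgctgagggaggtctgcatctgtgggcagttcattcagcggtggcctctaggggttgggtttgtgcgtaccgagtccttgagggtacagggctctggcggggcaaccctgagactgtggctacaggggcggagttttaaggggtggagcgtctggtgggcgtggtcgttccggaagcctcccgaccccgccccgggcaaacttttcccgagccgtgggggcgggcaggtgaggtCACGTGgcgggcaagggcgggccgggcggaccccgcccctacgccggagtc
Counting the start as 0, the AP-1 match began at -162, the E-box match in the second *Slc12a5* promoter at -36, and the one in *Slc12a7* at -1. Searched on both strands, CACGTG occurred in 7.15% and TGANTCA in 7.81% of 32851 RefSeq promoters of the same length. The motifs were counted in 9 promoters of 7 of the genes. No promoter of *Slc12a2* was included, so the counts say nothing about that gene. Of the 9, CACGTG occurred in 3 (the 2 of *Slc12a7* overlap and hold the same match) and TGANTCA in 1. The cAMP response element (TGACGTCA, 1.79% of all promoters) occurred in 1, that of *Oxsr1*, and an Egr motif (GCGNGGGCG, 5.55%) in 0 of the 9. GC boxes (GGGCGG), which can overlap the Egr motif, occurred in 8 of the 9 and in 35.7% of all promoters. These 8 were 62.3% to 80.0% G and C, and that of *Wnk2*, without a GC box, was 50.7%. The median of all promoters was 52.7%, so the share with a GC box is not compared at equal base content. The motif matches describe the letters in the window and are not measured binding sites.

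The libraries held an estimated 10500000 to 51700000 tags (median 26650000), so that 3 tags were worth 0.058 to 0.285 CPM. The lowest member, *Slc12a7*, rested on an estimated 20 to 201 tags per library, and *Slc12a5* on 3496 to 24538. Of the libraries, 4, with 1 from each group except SE 2 days, stood apart by *Ttr*, the transthyretin gene that choroid plexus expresses at very high level. *Ttr* measured 1668 CPM in pre-SE replicate 2, 3936 in SE 6 h replicate 2, 843 in SE + LEV 6 h replicate 1 and 1475 in SE + LEV 2 days replicate 1, against 4.33 to 55.6 CPM in the other 6. Of other cell type markers, the astrocyte genes *Gfap* and *Aqp4* rose in SE 2 days against pre-SE (2 of 7 markers, beside 5.07% of all genes). The other 5 did not pass the limma test, and 4 of them had a logFC below 0 (-1.18 to -0.73) with an unadjusted p under 0.05, so that the median of the 7 was -0.73. The endothelial gene *Cdh5* rose in SE 6 h (1 of 6, beside 2.76% of all genes), whereas 0 of 4 oligodendrocyte precursor and 0 of 6 choroid plexus markers passed the limma test in either (1 of 4 and 0 of 6 at an unadjusted p under 0.05 in SE 2 days). The summed neuron markers ranged from 2921 to 5387 CPM. Values of the members that moved with *Ttr* are given below beside the results they touch.

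In order of mean level over the 10 libraries, *Slc12a5* came first at 385 CPM, followed by *Wnk2* at 56.8, *Stk39* at 48.7, *Slc12a2* at 39.8, *Oxsr1* at 39.3, *Wnk1* at 30.6, *Slc12a4* at 14.1 and *Slc12a7* at 2.72 CPM. *Slc12a5* exceeded *Wnk2* in 10 of 10 libraries, by 3.05-fold to 15.4-fold. *Wnk1* exceeded *Slc12a4*, and *Slc12a4* exceeded *Slc12a7*, in 10 of 10 libraries as well. The genes between *Wnk2* and *Wnk1* were not separated beyond their spread, since *Wnk2* was above *Stk39* in 6, *Stk39* above *Slc12a2* in 9, *Slc12a2* above *Oxsr1* in 5 and *Oxsr1* above *Wnk1* in 6 of 10 libraries. Among the 4 transporters, *Slc12a5* made up 81.5% to 91.1% of the tags in each library and *Slc12a2* 6.35% to 15.5%.

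**Figure D1:**
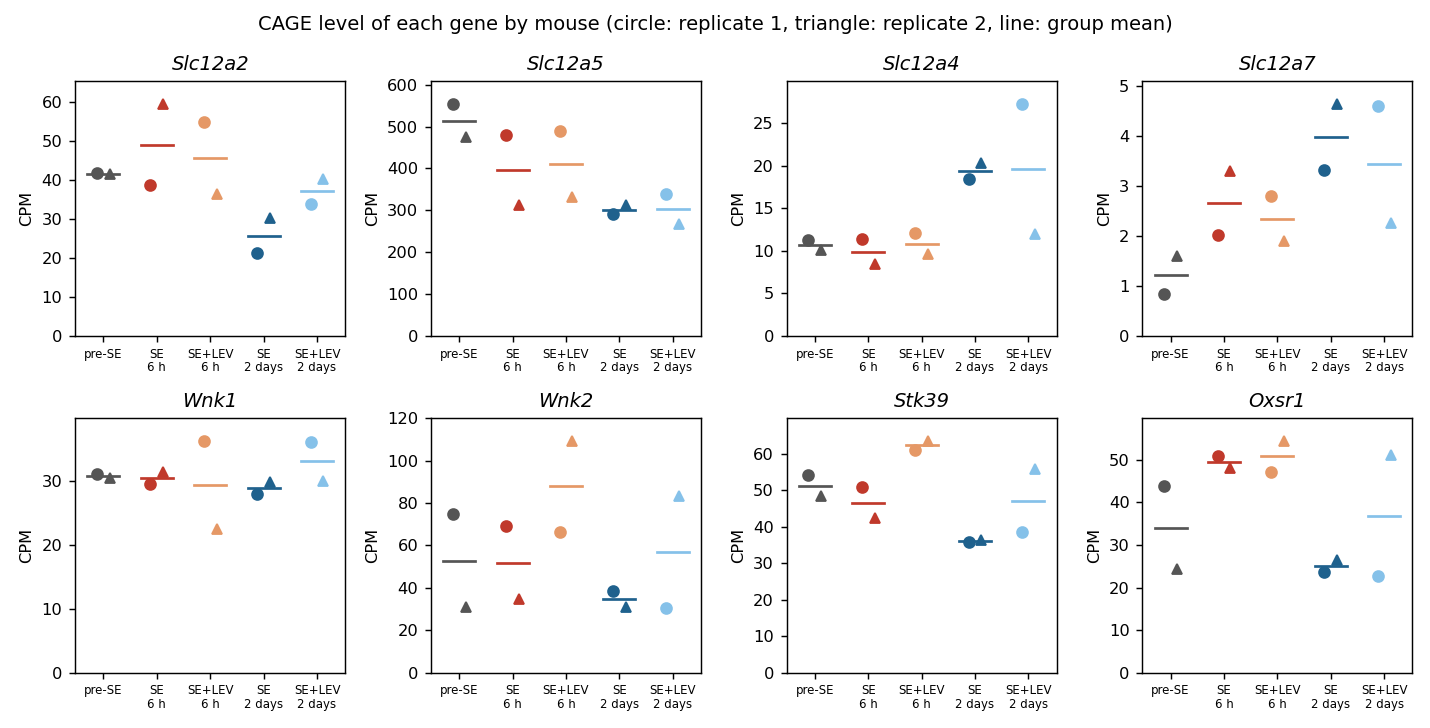
CAGE level in CPM (vertical axis, from 0) of each of the 8 genes in the 5 groups (horizontal axis), with 1 point per mouse and a line at the mean of 2 mice. *Slc12a5* lay between 475 and 554 CPM in pre-SE mice and between 267 and 340 in the 4 mice at 2 days, while the 2 mice of a group often differed widely for *Wnk2*, between 30.3 and 83.4 CPM in SE + LEV 2 days.

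None of the 8 genes passed the test (limma, adjusted p of at most 0.05 over all genes tested) in any of the 9 comparisons between groups or in the test for any difference among the 5 groups. Of all genes tested, 2.96% passed in SE 6 h against pre-SE, 5.66% in SE 2 days against pre-SE, 4.25% in SE 2 days against SE 6 h and 5.77% in the 5-group test. With LEV, 0.0126% passed against SE at 6 h and 0% at 2 days, and 0.322% and 2.85% passed against pre-SE at 6 h and 2 days. SE + LEV 2 days against SE + LEV 6 h gave 2.14%. At an unadjusted p under 0.05, members numbered 1 at SE 6 h (17.7% of all genes), 4 at SE 2 days (19.8%), 3 for SE 2 days against SE 6 h (20.1%), 2 for SE + LEV 2 days against pre-SE (10.8%) and 1 in the 5-group test (19%). The count of 4 at SE 2 days became 0 without pre-SE replicate 1, 1 without SE 2 days replicate 1, and 2 without pre-SE replicate 2 or SE 2 days replicate 2. Members numbered 0 for LEV against SE at 6 h (4.58%) and at 2 days (2.7%), for SE + LEV 6 h against pre-SE (9.38%) and for SE + LEV 2 days against SE + LEV 6 h (11.9%). With 2 mice per group, the 95% confidence intervals were wide, and a p that missed the threshold does not show that a level was unaltered. The comparisons with pre-SE share the same 2 control mice, and those of LEV with SE use the same SE mice as the comparisons of SE with pre-SE.

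**Figure D2:**
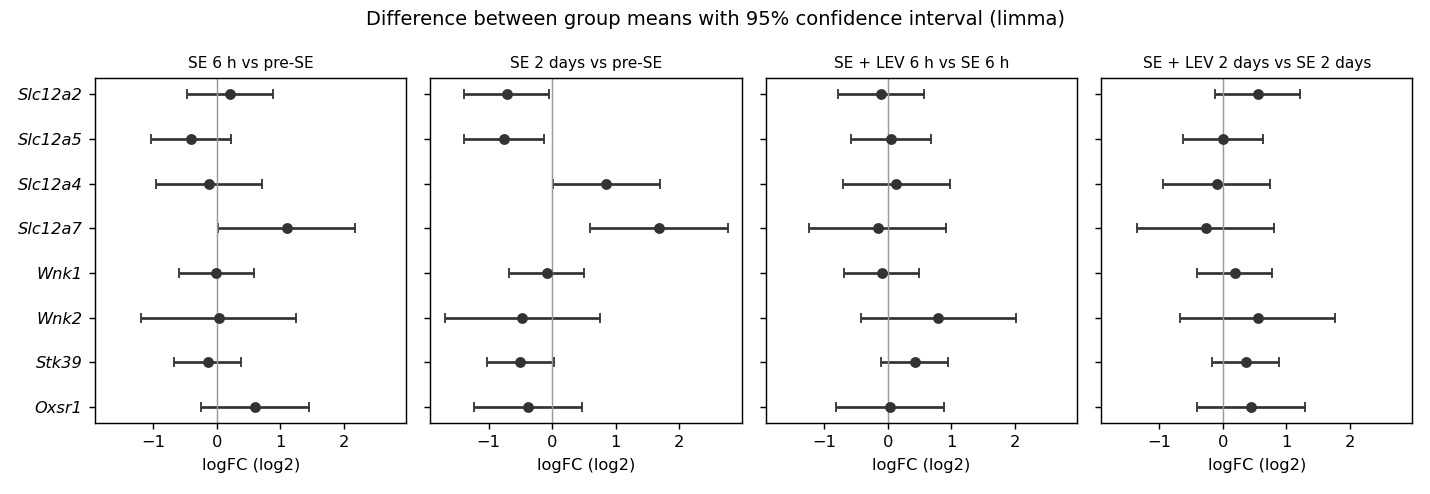
Difference in log2(CPM + 0.1) between group means (logFC, horizontal axis) for each gene, with its 95% confidence interval from limma as a bar, in 4 comparisons of 2 mice with 2. At SE 2 days against pre-SE the intervals of *Slc12a2*, *Slc12a5*, *Slc12a4* and *Slc12a7* lay off 0 before adjustment, whereas the intervals of all 8 genes for LEV at both times included 0.

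*Slc12a5* (Kcc2, ENSMUSG00000017740) spans chr2:164786316-164825228 on the plus strand (mm9, GENCODE M1), with up to 26 exons and 7 annotated starts. It measured 554 and 475 CPM in the pre-SE mice, 479 and 313 in SE 6 h, and 490.2 and 333 in SE + LEV 6 h. At 2 days it measured 290.1 and 313 CPM in SE and 340 and 267 in SE + LEV. All 4 mice at 2 days were below both pre-SE mice, whereas at 6 h each group had 1 mouse within the pre-SE range. The mean was 514 ± 55.9 CPM (SD, n = 2) in pre-SE and 301 ± 15.9 (SD, n = 2) in SE 2 days, a logFC of -0.77 (standard error, s.e., 0.28, 95% interval -1.40 to -0.14) with an adjusted p of 0.161 by limma. SE + LEV 2 days differed from pre-SE by a logFC of -0.77 as well, with an adjusted p of 0.297 by limma. The genes most like it over the 10 libraries were *Epha5*, an ephrin receptor (r 0.96), *Clcn4-2*, a chloride-proton exchanger (r 0.96), and *Rab6b*, a neuronal Rab GTPase (r 0.96). In bulk tissue, fewer cells of a type and less RNA per cell cannot be told apart.

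The summed neuron markers, of which 6 of 7 were in the table, were 5387 and 4516 CPM in pre-SE, 3510 and 2971 in SE 2 days and 2921 and 3243 in SE + LEV 2 days, and 0 of the 6 passed the limma test in these comparisons, 1 having an unadjusted p under 0.05 at SE 2 days. Relative to the mean log2 level of these markers, *Slc12a5* was at 0.059 and 0.18 in pre-SE, -0.28 and 0.041 in SE 2 days, and 0.13 and -0.44 in SE + LEV 2 days. On this scale both SE 2 days mice were below both pre-SE mice, replicate 2 only narrowly (0.041 against 0.059), and SE + LEV 2 days overlapped pre-SE. The part of neuronal content in the level of *Slc12a5* was not tested. *Gm11459*, a noncoding transcript annotated on the same strand over the first start of *Slc12a5*, has its own entry in the table and held 3.36% to 4.70% of the summed tags of the pair. It measured 22.7 and 23.4 CPM in pre-SE and 12.6 and 14.5 in SE 2 days, a logFC of -0.77 with an adjusted p of 0.172 by limma. How tags in the shared stretch were assigned is not given in the sources used here.

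*Slc12a2* (Nkcc1, ENSMUSG00000024597), the importer, is expressed in neurons and in glia including oligodendrocytes. It measured 41.7 and 41.6 CPM in pre-SE, 38.7 and 59.4 in SE 6 h, and 54.9 and 36.3 in SE + LEV 6 h. At 2 days it measured 21.2 and 30.1 CPM in SE and 33.9 and 40.3 in SE + LEV. The 2 SE 2 days mice were the lowest of the 10, below both pre-SE and both SE + LEV 2 days mice. SE 2 days differed from pre-SE by a logFC of -0.72 (s.e. 0.30, 95% interval -1.39 to -0.046) with an adjusted p of 0.219, and from SE 6 h by -0.92 (s.e. 0.30) with an adjusted p of 0.128, both by limma. SE + LEV 2 days differed from SE 2 days by 0.55 (s.e. 0.30, 95% interval -0.13 to 1.22), with an adjusted p of 1 by limma. Without SE 2 days replicate 1 these differences from pre-SE and of SE + LEV 2 days from SE 2 days were -0.46 and 0.29, and without SE 6 h replicate 2 that from SE 6 h was -0.61.

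The gene most like *Slc12a2* over the 10 libraries was *C030030A07Rik* (Pearson r 0.97 on the log2 scale, the highest of 11972 genes compared). *Tcf7l2*, a transcription factor of the Wnt pathway, was also among the most alike (r 0.94). Such values, here and for the other members, describe libraries that share groups and cell content. The summed level of 7 oligodendrocyte markers was 5024 and 5463 CPM in pre-SE, 3448 and 6521 in SE 6 h, 5624 and 4230 in SE + LEV 6 h, 1819 and 2766 in SE 2 days and 3335 and 4639 in SE + LEV 2 days. The 2 SE 2 days mice were thus the lowest of the 10 for these markers too, although 0 of 7 passed the limma test in any comparison (5 of 7 had an unadjusted p under 0.05 at SE 2 days against pre-SE). Against the mean log2 level of these markers, *Slc12a2* was at -3.01 and -3.00 in pre-SE and -2.71 and -2.75 in SE 2 days. It was at -2.53 and -2.56 in SE 6 h, -2.80 and -2.64 in SE + LEV 6 h, and -2.92 and -2.83 in SE + LEV 2 days. Both mice of every SE group, with or without LEV, were thus above both pre-SE mice on this scale. The part of oligodendrocyte content in the level of *Slc12a2* was not tested. *Slc12a2* is also abundant in choroid plexus. Within the 4 groups with a *Ttr*-rich library it was higher in that library in 2 and lower in 2, of which pre-SE differed little (41.7 and 41.6 CPM), and the part of choroid plexus in its level was not tested.

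**Figure D3:**
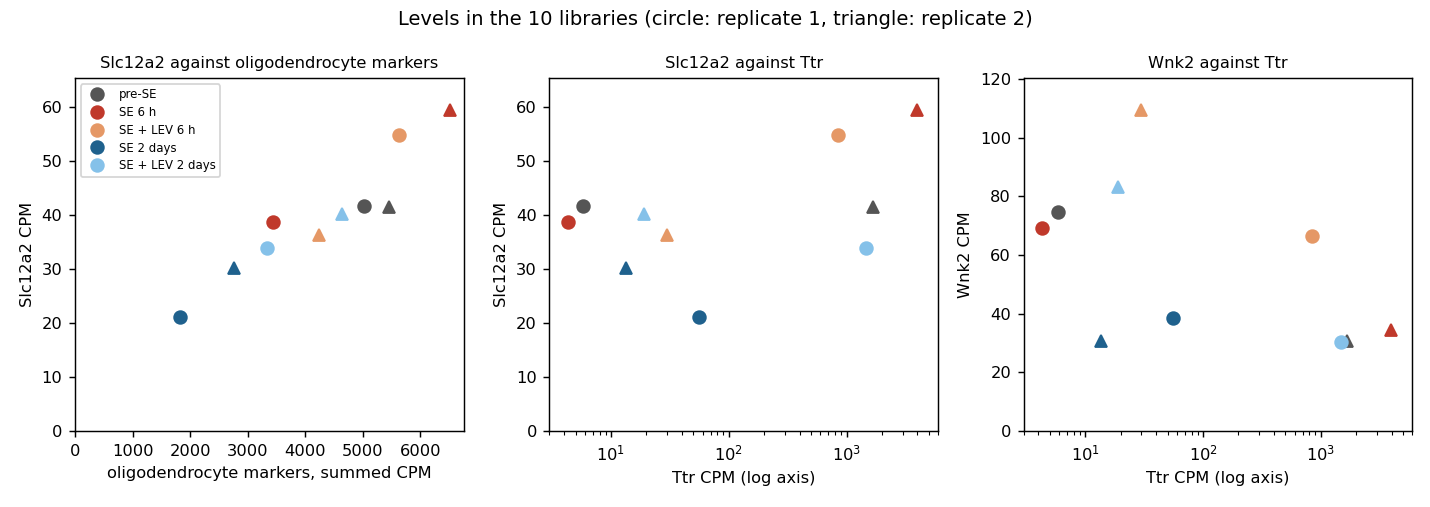
*Slc12a2* CPM against the summed CPM of 7 oligodendrocyte markers (left), *Slc12a2* CPM against *Ttr* CPM on a log axis (middle) and *Wnk2* CPM against *Ttr* CPM on a log axis (right), with 1 point per library coloured by group. *Slc12a2* ran from 21.2 CPM where the markers summed to 1819 CPM to 59.4 CPM where they summed to 6521 CPM, and *Wnk2* was 30.3 to 66.5 CPM in the 4 *Ttr*-rich libraries and 30.9 to 109 CPM in the other 6.

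The ratio of *Slc12a5* to *Slc12a2*, which does not depend on how libraries are scaled, was 13.3 and 11.4 in pre-SE, 12.4 and 5.27 in SE 6 h, and 8.94 and 9.16 in SE + LEV 6 h. It was 13.7 and 10.4 in SE 2 days and 10.03 and 6.62 in SE + LEV 2 days. SE 6 h replicate 2 had the lowest ratio. The SE groups without LEV overlapped the pre-SE mice, whereas all 4 mice given LEV were below both pre-SE and both SE 2 days mice. On the log2 scale, the 8 SE mice differed from the 2 pre-SE mice by -0.42 (two-sided exact permutation test, p = 0.244, smallest possible 0.0222). Mice at 2 days differed from those at 6 h by 0.21 (n = 4 each, exact permutation p = 0.543, smallest possible 0.0286), a direction that turned to -0.027 without SE 6 h replicate 2. SE mice with LEV differed from those without by -0.19 (n = 4 each, exact permutation within each time, p = 0.611, smallest possible 0.0556), which turned to 0.12 without SE 6 h replicate 1. The Benjamini-Hochberg adjusted p over these 3 exact permutation tests was 0.611 for each.

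**Figure D4:**
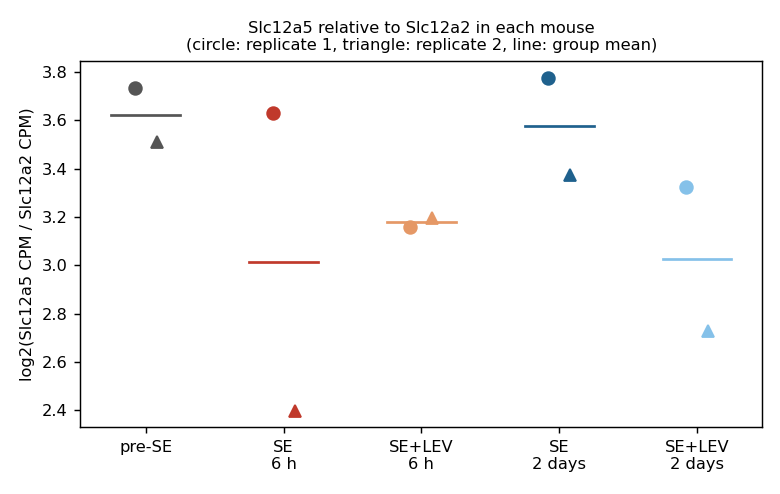
Log2 ratio of *Slc12a5* to *Slc12a2* CPM (vertical axis) in each mouse by group, with 1 point per mouse and a line at the mean of 2 mice. The points run from 2.40 in SE 6 h replicate 2 to 3.78 in SE 2 days replicate 1, and all 4 SE + LEV mice lie below the mice of pre-SE and SE 2 days.

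*Slc12a4* (Kcc1, ENSMUSG00000017765), a widely expressed potassium-chloride cotransporter that responds to cell volume, spans chr8:108467490-108489974 on the minus strand. It measured 11.3 and 10.1 CPM in pre-SE, 11.4 and 8.5 in SE 6 h, and 12.1 and 9.68 in SE + LEV 6 h. It measured 18.4 and 20.4 CPM in SE 2 days and 27.3 and 12.03 in SE + LEV 2 days. Both SE 2 days mice were above all 6 mice of pre-SE and 6 h, and SE + LEV 2 days replicate 2 lay within the range of those 6. SE 2 days differed from pre-SE by a logFC of 0.85 (s.e. 0.38, 95% interval 0.013 to 1.69), with an adjusted p of 0.245 by limma, and from SE 6 h by 0.97 (s.e. 0.38), with an adjusted p of 0.190 by limma. The genes most like it were *S100a16* (r 0.97), *Mcm5*, a replication helicase subunit (r 0.96), and *Il33*, a cytokine (r 0.96).

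*Slc12a7* (Kcc4, ENSMUSG00000017756) spans chr13:73870542-73954191 on the plus strand and encodes a potassium-chloride cotransporter best known from kidney and inner ear. It measured 0.83 and 1.59 CPM in pre-SE, 2.02 and 3.29 in SE 6 h, and 2.79 and 1.90 in SE + LEV 6 h. It measured 3.31 and 4.63 CPM in SE 2 days and 4.60 and 2.26 in SE + LEV 2 days. All 8 SE mice were above both pre-SE mice. SE 2 days differed from pre-SE by a logFC of 1.68 (s.e. 0.49, 95% interval 0.60 to 2.76), with an adjusted p of 0.0770 by limma, the lowest of any member in any comparison. SE 6 h differed from pre-SE by 1.1 (s.e. 0.49, adjusted p = 0.275 by limma) and SE + LEV 2 days by 1.41 (s.e. 0.49, adjusted p = 0.248 by limma). Without pre-SE replicate 1 the difference at SE 6 h was 0.67, and without SE + LEV 2 days replicate 1 that of SE + LEV 2 days was 0.91. *Slc12a7* was higher in the *Ttr*-rich library in 4 of 4 groups that had one, as were 5.99% of all genes, and the part of choroid plexus in it was not tested. In the 6 libraries with low *Ttr*, it was 0.83 CPM in pre-SE, 2.02 in SE 6 h and 1.90 in SE + LEV 6 h. At 2 days it was 3.31 and 4.63 CPM in SE and 2.26 in SE + LEV, with 1 library in each group except SE 2 days. The genes most like it were *Tuba1c* (r 0.98), *Srgn*, a proteoglycan of blood cells and microglia (r 0.97), and *Dab2*, an endocytic adaptor (r 0.96). The summed microglia markers were 362 and 431 CPM in pre-SE, 285 and 264 in SE 6 h and 844 and 996 in SE 2 days, so that they and *Slc12a7* were both higher at SE 2 days than pre-SE but only *Slc12a7* was higher at SE 6 h. Of the 6 microglia markers, 2, *Tmem119* and *P2ry12*, fell at SE 6 h against pre-SE (0.202% of all genes fell). At SE 2 days 2 of the 6, among them *Aif1*, rose against pre-SE (5.07% of all genes rose). *P2ry12* was then still below pre-SE, at 18.1 and 16.9 CPM against 41.5 and 26.9, so the markers did not move as 1. The part of microglia content in the level of *Slc12a7* was not tested.

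Of the kinases, *Wnk1* (ENSMUSG00000045962, chr6:119873987-119988690, minus strand), a broadly expressed upstream kinase, varied least of the 8 genes, with a 1.62-fold range over the libraries. It measured 31.1 and 30.5 CPM in pre-SE, 29.6 and 31.5 in SE 6 h, and 36.4 and 22.5 in SE + LEV 6 h. It measured 28.0 and 29.9 CPM in SE 2 days and 36.1 and 30.1 in SE + LEV 2 days. SE 2 days differed from pre-SE by a logFC of -0.090 (s.e. 0.27, 95% interval -0.68 to 0.50), with an adjusted p of 0.895 by limma. The groups did not overlap, with SE 2 days below pre-SE. *Wnk1* has 21 annotated starts, which were not separated here. The genes most like it were *Fkbp9* (r 0.89), *Opalin*, an oligodendrocyte gene (r 0.88), and *Alg1* (r 0.85), lower values than for any other member.

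*Wnk2* (ENSMUSG00000037989, chr13:49131672-49243383, minus strand) encodes a WNK kinase enriched in the brain. It measured 74.7 and 30.8 CPM in pre-SE, 69.1 and 34.6 in SE 6 h, and 66.5 and 109 in SE + LEV 6 h. It measured 38.4 and 30.9 CPM in SE 2 days and 30.3 and 83.4 in SE + LEV 2 days. The *Ttr*-rich library was the lower of the 2 in 4 of 4 groups, as for 10.4% of all genes. SE + LEV 6 h differed from SE 6 h by a logFC of 0.80 (s.e. 0.55, 95% interval -0.42 to 2.02), with an adjusted p of 1 by limma, and the groups overlapped. The genes most like it were *Zfp710* (r 0.99), *C030046E11Rik* (r 0.99) and *Naa30* (r 0.98).

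*Stk39* (Spak, ENSMUSG00000027030, chr2:68048502-68310325, minus strand) and *Oxsr1* (Osr1, ENSMUSG00000036737, chr9:119147550-119231545, minus strand) encode the kinases that act on the transporters directly. *Stk39* measured 54.1 and 48.4 CPM in pre-SE, 50.8 and 42.3 in SE 6 h, and 61.1 and 63.6 in SE + LEV 6 h. It measured 35.7 and 36.4 CPM in SE 2 days and 38.6 and 55.8 in SE + LEV 2 days. SE 2 days was the lowest group and SE + LEV 6 h the highest, neither overlapping any other group. SE 2 days differed from pre-SE by a logFC of -0.50 (s.e. 0.24, 95% interval -1.03 to 0.023, adjusted p = 0.272 by limma), and SE + LEV 6 h from SE 6 h by 0.43 (s.e. 0.24, 95% interval -0.10 to 0.95, adjusted p = 1 by limma).

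*Oxsr1* measured 43.9 and 24.3 CPM in pre-SE, 50.8 and 48.1 in SE 6 h, and 47.2 and 54.5 in SE + LEV 6 h. It measured 23.6 and 26.6 CPM in SE 2 days and 22.7 and 51.1 in SE + LEV 2 days. Both groups at 6 h were above both pre-SE mice, and SE 2 days was below SE 6 h. SE 6 h differed from pre-SE by a logFC of 0.60 (s.e. 0.38, 95% interval -0.26 to 1.45, adjusted p = 0.443 by limma), and SE 2 days from SE 6 h by -0.98 (s.e. 0.38, 95% interval -1.83 to -0.12, adjusted p = 0.195 by limma). The difference of *Oxsr1* between SE 6 h and pre-SE rested on which pre-SE mouse was kept, at 1.02 without replicate 1 and 0.17 without replicate 2. Both *Stk39* and *Oxsr1* were lower in the *Ttr*-rich library in 4 of 4 groups, like *Wnk2*. The 3 kinases varied together over the 10 libraries, with the highest r of any pairs of members. It was 0.85 for *Wnk2* and *Stk39*, 0.82 for *Wnk2* and *Oxsr1* and 0.77 for *Stk39* and *Oxsr1*. *Wnk1*, the remaining kinase, did not vary with them, at r of -0.44 with *Wnk2*, -0.21 with *Stk39* and -0.26 with *Oxsr1*. These libraries share the *Ttr* split and their group, and its part in these values was not tested. The genes most like *Stk39* were *Epha6* (r 0.97), *Dcun1d1* (r 0.95) and *Grid1* (r 0.94), and those most like *Oxsr1* were *Atxn7*, *Tbkbp1* and *Klhl29* (r 0.97 each). The ratio of *Stk39* to *Oxsr1* was lowest in SE 6 h, at 0.94 ± 0.084 (SD, n = 2), and 1.61 ± 0.54 (SD, n = 2) in pre-SE.

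Counted over the 8 genes, the 2 mice of SE 6 h were both above the 2 of pre-SE for 2 genes (18.6% of all genes) and both below for 0 (31.3%). The corresponding counts for SE 2 days were 2 above (26.3%) and 4 below (25.6%), the latter being *Slc12a2*, *Slc12a5*, *Stk39* and *Wnk1*. For LEV they were 1 above (16.1%) and 0 below (13.4%) at 6 h, and 3 above (15.2%) and 0 below (12.2%) at 2 days, the 3 being *Slc12a2*, *Wnk1* and *Stk39*. The median logFC of the 8 genes was 0.0086 at SE 6 h (all genes -0.13), -0.43 at SE 2 days (all genes -0.032), 0.048 for LEV at 6 h (all genes 0.041) and 0.28 for LEV at 2 days (all genes 0.041). Against pre-SE, SE + LEV 6 h was above for 3 genes (17%) and below for 0 (25.5%), and SE + LEV 2 days above for 2 (22.6%) and below for 2 (17.5%). SE 2 days was above SE 6 h for 2 (31%) and below for 4 (20.1%), and SE + LEV 2 days above SE + LEV 6 h for 0 (26.6%) and below for 1 (14.6%). The difference between the LEV effects at the 2 times passed by limma for 0% of all genes and 0 of the 8 genes, with 2.38% of genes at an unadjusted p under 0.05 and 0 of the 8.

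Of the wider pathway, 9 of 14 listed genes were in the table, among them the kinase adaptor *Cab39* and the ubiquitin ligase adaptor *Klhl3*. In the 4 comparisons of SE with pre-SE and of LEV with SE, 0 of the 9 passed the limma test, and 2, 1, 1 and 0 had an unadjusted p under 0.05 at SE 6 h, SE 2 days, LEV at 6 h and LEV at 2 days. None of the 6 sodium-potassium ATPase subunits, which set the gradients the transporters use, passed the limma test in any comparison, with 0 at an unadjusted p under 0.05 in these 4.

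Of 13 measured regulators and partners of Kcc2, 2 rose at SE 6 h (2.76% of all genes rose) and 0 fell by the adjusted limma test. At an unadjusted limma p under 0.05 they numbered 7 at SE 6 h (17.7% of all genes) and 6 at SE 2 days (19.8%), in both directions at each time. For LEV against SE they numbered 1 at 6 h (4.58%) and 2 at 2 days (2.7%). *Bdnf*, the neurotrophin that lowers Kcc2 in mature neurons, measured 52.0 and 39.6 CPM in pre-SE and 231 and 261 in SE 6 h, a logFC of 2.43 with an adjusted p of 0.0178 by limma. *Egr4*, a transcription factor known to drive *Slc12a5*, measured 25.6 and 78.9 CPM in pre-SE and 704 and 591 in SE 6 h, a logFC of 3.84 with an adjusted p of 0.0346 by limma. Over the alternatives other than leaving out the 4 *Ttr*-rich libraries, which keeps 1 library of each of these groups, the limma adjusted p of *Bdnf* ranged from 0.00730 to 0.141, and it was lost without any 1 of the 4 pre-SE and SE 6 h libraries. That of *Egr4* ranged from 0.0140 to 0.210, and it was lost with the replicate number as a block (0.0510), without a mean-variance trend, and without any 1 of the pre-SE, SE 6 h and SE 2 days libraries. Neither passed at SE 2 days (adjusted p of 0.0513 for *Bdnf* and 0.121 for *Egr4* by limma).

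Of 16 measured genes of other chloride channels, bicarbonate exchangers and carbonic anhydrases, 1 rose at SE 2 days (5.07% of all genes rose) and 0 fell. It was *Lrrc8a*, the required subunit of the volume-regulated anion channel, which measured 60.0 and 43.1 CPM in pre-SE and 111 and 103 in SE 2 days. Its logFC was 1.07 with an adjusted p of 0.0253 by limma. The adjusted p ranged from 0.0186 to 0.166 over the alternatives run and passed the threshold in 14 of 20, being lost without pre-SE replicate 2 or either SE 2 days mouse, with only the 2 groups in the fit, without a trend and without the 4 *Ttr*-rich libraries, a fit with 1 residual degree of freedom. None of these genes passed with LEV. At an unadjusted limma p under 0.05, 3 of the 16 counted at SE 6 h (17.7% of all genes) and 2 at SE 2 days (19.8%), in both directions at each time.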

How the data were processed

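CAGE was performed on total RNA from whole hippocampus of 10 mice, 2 per group, with an RNA integrity number over 7. According to the submitters' processing notes and the methods, reads were mapped to mm9 with BWA 0.7.17 and, where unmapped, HISAT2 2.0.5, tags were clustered with the RECLU pipeline using bedtools 2.12.0, and differential expression was called with edgeR 3.22.5. Clusters of under 0.1 CPM, longer than 200 bp or at an irreproducible discovery rate of 0.1 or above were discarded. The authors deposited gene-level CPM values, which are used here. How clusters were summed to genes, and whether library totals were adjusted, is not given in the sources used here.

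Because the values are CPM, the main test was limma 3.58.1 (R 4.3.3) on log2(CPM + 0.1) with a mean-variance trend, 5 group means in 1 fit, and p-values adjusted by Benjamini-Hochberg across the 15851 genes that reached 0.1 CPM in 2 libraries or more. Fold changes on this scale understate those of low genes. The labels give the replicates as separate samples and the study reports 2 mice per group, so p-values measure the spread between mice. The number of tags behind each library was estimated from the steps between low CPM values, with a tolerance of 0.005 CPM, and served only to describe depth, where limits cover counting error only. Log ratios were compared by exact permutation. The fit was tested on simulated data. The rule for naming genes was all 8 members, genes of the other lists that passed the test in a comparison of SE with pre-SE, LEV with SE or SE 2 days with SE 6 h, and up to 3 genes per member with the highest Pearson r over the 10 libraries among genes with a mean of at least 5 CPM. *Cab39*, *Klhl3*, *Gm11459* and *Ttr* were named in addition, and some genes that the rule would name are not reported here. The members and lists were chosen with earlier results of these data known. Alternatives changed the pseudocount, filter, scaling, libraries in the fit, replicate block and trend, and left out each mouse. Figures were drawn with matplotlib 3.10.9.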

Additional observations from a re-analysis of the deposited data

How the results depend on the processing

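In up to 20 alternatives to the fit the number of the 8 genes passing the test stayed 0 in each comparison and in the 5-group test, with 1 exception. With the replicate number as a block and the numbers of SE + LEV 2 days crossed, an alternative chosen after seeing the data, as were the fits without a mean-variance trend and without the 4 *Ttr*-rich libraries, 1 gene passed in SE 2 days against pre-SE, *Slc12a7* (adjusted p = 0.0444 by limma). The replicate block with the numbers as given left 0 of 8 passing in every comparison. Same-numbered mice are different animals, and the correlation of their deviations ran from -0.436 to 0.343 over pairs of groups, so the number was not treated as pairing. The value for *Slc12a7* in SE 2 days against pre-SE kept its direction in 20 of 20 alternatives, with an adjusted p of 0.0444 to 0.459 by limma. Rescaling by median of ratios moved the median logFC of all genes at SE 6 h from -0.13 to -0.0045, and the members with an unadjusted p under 0.05 at SE 2 days from 4 to 2. For that count, leaving out each mouse gave 0 to 5. The genes passing in SE 6 h against pre-SE numbered 469, and 113 (without SE 6 h replicate 2) to 596 over the alternatives other than leaving out the *Ttr*-rich libraries, and in SE 2 days against pre-SE 897, and 248 (without SE 2 days replicate 2) to 1363. Among 38 differences whose groups overlapped, sign changed in 54 of 760 fits and 0 passed. For the log2 ratio of *Slc12a5* to *Slc12a2*, leaving out each mouse gave -0.53 to -0.31 for SE, -0.027 to 0.40 for time (-0.027 without SE 6 h replicate 2) and -0.50 to 0.12 for LEV (0.12 without SE 6 h replicate 1). Without the 4 *Ttr*-rich libraries 1 residual degree of freedom was left, and the counts of 0 from that fit say nothing. The count models edgeR and DESeq2 were not run, since whole tags could not be recovered in 7 of 10 libraries.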
